A study of Mus musculus with 6 samples.

Results

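Genes that mark satellite cells, the stem cells of skeletal muscle, were followed in RNA-seq data from cultured satellite cells of control mice and of mice with a conditional knockout of Hira, the gene of a histone chaperone. The set was given by name: Pax7, Pax3, Calcr, Cd34, Spry1, Sdc3, Sdc4, Chrdl2, Tenm4 and Vcam1, which are 10 of the 55536 genes counted. All 10 were found by symbol in GENCODE M21, the gene annotation on the mm10 build of the mouse genome.

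The mice were adult C57BL/6J males, and all of them carried Pax7CreErt2, a tamoxifen-inducible Cre recombinase expressed from the Pax7 locus, and were fed tamoxifen. Control animals were Pax7CreErt2;Hira fl/+, with 1 floxed copy of Hira, although the sample labels call them wild type. Knockout (cKO) animals were Pax7CreErt2;Hira fl/fl. The tibialis anterior muscle was injured with barium chloride, and cells were sorted 5 days later as ITGA7+ CD34+ and negative for CD45, TER119 and SCA1. They were then cultured for 48 h in high serum with basic FGF, and 3 RNA samples per genotype were sequenced. Neither the labels nor the paper's text ties each RNA sample to a separate mouse, so the p-values below measure the spread between these samples. The marker gene Pax7 was thus measured in animals that all had an altered Pax7 locus, and Cd34 in cells that had all been chosen for its protein.

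Satellite cells rest in a quiescent state beneath the sheath of the muscle fibre, and injury makes them divide and commit to muscle. PAX7, and in some muscles its paralogue PAX3, are the transcription factors that define these cells. In the quiescent state they also make the calcitonin receptor (Calcr), the FGF signalling inhibitor Sprouty1 (Spry1), the secreted BMP antagonist chordin-like 2 (Chrdl2) and the teneurin Tenm4 (formerly Odz4). CD34, VCAM1 and the heparan sulphate proteoglycans syndecan-3 and syndecan-4 (Sdc3, Sdc4) are surface proteins used to find or sort them. Calcr in particular is known for being lost when the cells activate.

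Each library held between 47944477 and 63323577 counted reads. Of the 22404 genes tested, 15.8% differed between cKO and control (edgeR, quasi-likelihood; Benjamini-Hochberg adjusted p below 0.05), 6.46% lower and 9.38% higher in cKO. Counts of the targeted gene Hira were 375, 348 and 341 for control and 161, 293 and 272 for cKO. Hira thus fell by 25.9%, so most of its counts remained in cKO. These are counts over the whole gene, and which exons the floxed allele loses is not given in the sources used here, so they do not measure the deletion itself. The change in log2 level was -0.43 ± 0.12 (standard error; adjusted p = 0.0237), and without control replicate 1 it was -0.34 and did not pass the test (adjusted p = 0.104). Among the markers that define satellite cells and muscle progenitors, Itga7, Cdh15, Myf5, Myod1, Des, Pax7 and Vcam1 were all at 33.6 CPM (counts scaled to the library's total, so that libraries of unequal depth can be compared) or more in all 6 samples, while Calcr was nearly absent. Genes of muscle differentiation were abundant as well. Myog was at a mean of 2112 CPM in control and 1876 CPM in cKO, and the embryonic myosin gene Myh3 at 10803 and 9739 CPM. The marker levels below are thus those of cultures that also expressed differentiation genes strongly.

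Of the 10 markers, 8 were still present at 1 CPM or more in every sample after the 48 h of culture. The exceptions were Calcr and Chrdl2. No freshly sorted or quiescent cells were among the samples, so a loss or gain during culture could not be measured. To compare genes with each other, CPM were divided by the length of the gene's exons in kilobases. On this scale the 5 upper markers were separated from the 5 lower ones by a wide gap: Pax7 lay 21.2-fold above Cd34 in the control samples. The gap depends on the length used, and with the longest transcript in place of all exons the levels were 6.72 and 0.755 CPM per kilobase. The syndecans led. Sdc4 had 44.1 ± 1.34 and Sdc3 36.2 ± 0.226 CPM per kilobase in control (SD, n = 3), and they stood above 92.6% and 90.4% of the genes tested. These shares of genes, here and below, use means over all 6 samples of both genotypes. The syndecans were followed by Spry1 (10.6 ± 0.479), Vcam1 (8.74 ± 0.216) and Pax7 (6.71 ± 0.128 CPM per kilobase), which stood above 74.7%, 69.8% and 64.9% of the genes. The median of the genes tested was 2.90 CPM per kilobase.

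The lower 5 markers were all below that median. Cd34 had 0.317 ± 0.0239 CPM per kilobase in control, although every cell had been sorted for CD34 protein before culture. Its mean over all 6 samples was above 20.8% of genes. Pax3 was at 0.191 ± 0.0195 CPM per kilobase, so that its level was 2.85% ± 0.341 of that of Pax7 in control and 2.77% ± 0.103 in cKO (SD, n = 3 each). With the longest transcript as length, the control levels were 0.306 for Pax3 and 6.72 CPM per kilobase for Pax7, a larger share. Tenm4 (0.0861 ± 0.00850) and Chrdl2 (0.0819 ± 0.0196) came next and were the only neighbours in the order whose control samples overlapped. Calcr was last, at 0.0256 ± 0.00575 CPM per kilobase. When the longest transcript replaced all annotated exons as the length, Vcam1 came out at 18.97 and Cd34 at 0.755 CPM per kilobase, and Vcam1 then stood above Spry1 (11.1).

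**Figure D1:**
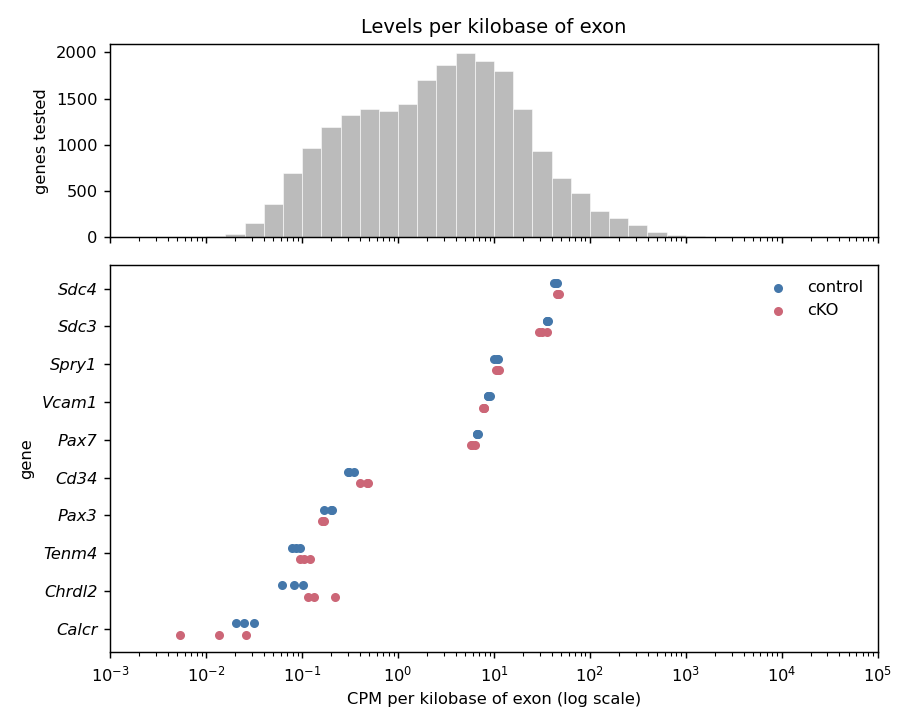
The lower panel shows the level of each marker in CPM per kilobase of exon on a log axis, with 1 point per sample for control and cKO, and the upper panel shows the mean levels of all 22404 genes tested on the same axis. Sdc4, Sdc3, Spry1, Vcam1 and Pax7 sit above the median of 2.90, and the other 5 markers below it.

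The stretches before the start site are shown for 3 markers that went different ways in cKO, as described further on: Sdc3 was lower, Cd34 was higher and Spry1 was not called. They are from RefSeq on GRCm38.p6 (mm10), at chr4:130792287-130792536, chr1:194938571-194938818 and chr3:37639697-37639946, all on the + strand and written 5′ to 3′ up to the first annotated exon. Capitals mark 2 motifs searched on both strands without regard to overlap: the E-box CANNTG, the letters bound by MYOD1 and MYF5, and the GC box GGGCGG.
Sdc3: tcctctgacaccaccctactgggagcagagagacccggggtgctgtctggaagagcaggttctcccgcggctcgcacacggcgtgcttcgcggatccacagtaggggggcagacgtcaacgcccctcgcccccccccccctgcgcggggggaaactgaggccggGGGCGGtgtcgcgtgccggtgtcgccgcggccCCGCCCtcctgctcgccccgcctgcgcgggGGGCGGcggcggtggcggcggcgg
Cd34: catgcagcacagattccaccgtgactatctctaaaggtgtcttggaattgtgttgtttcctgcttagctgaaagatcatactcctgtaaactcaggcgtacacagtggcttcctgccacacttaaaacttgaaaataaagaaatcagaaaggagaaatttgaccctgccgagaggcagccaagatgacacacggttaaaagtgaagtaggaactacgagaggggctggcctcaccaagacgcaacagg
Spry1: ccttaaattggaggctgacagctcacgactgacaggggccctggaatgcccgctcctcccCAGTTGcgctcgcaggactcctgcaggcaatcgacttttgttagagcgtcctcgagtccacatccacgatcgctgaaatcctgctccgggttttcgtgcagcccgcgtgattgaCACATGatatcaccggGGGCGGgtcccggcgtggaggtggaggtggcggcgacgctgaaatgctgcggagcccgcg
Windows of 250 bases were given for 7 of the 10 markers. Sdc3 held 3 GC boxes and Spry1 held 1 GC box and 2 E-boxes, whereas Cd34 held neither motif. Of all 32841 windows of this length, 66.2% held an E-box and 32.7% a GC box, so either match is common. Sdc3 had 32 CpG dinucleotides, more than 95.4% of windows, and Cd34 had 6, which is also the median of all windows. In the Sdc4 window there were 19 CpG dinucleotides, 4 GC boxes and no E-box, and in that of Pax7 13 CpG, 1 GC box and no E-box. The Pax7 window lies within an exon of the GENCODE annotation and is not printed. The Notch effector motif TGGGAA, held by 21.6% of windows, and TATAAA, held by 12.4%, were in none of the windows of these 7 genes.

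The question put to the comparison was whether the markers of the stem cell state differed between Hira cKO and control cells. Pax7, Sdc3 and Vcam1 were downregulated in cKO and Cd34 was upregulated by the edgeR test, with p adjusted over every gene tested. Pax3, Spry1, Sdc4, Chrdl2 and Tenm4 did not pass the test, and Calcr was removed by the filter on low counts. The 3 falls were close to each other in size: Pax7 fell by 12.3%, Sdc3 fell by 12.6% and Vcam1 fell by 12.1%. Cd34 rose by 40.7%. That is 4 of 9 markers tested, beside 15.8% of all genes: 3 were lower, beside 6.46% of all genes, and 1 was higher, beside 9.38%. The median log2 fold change of the 9 markers was 0.02, and that of all genes tested was -0.0011. Pax7 is among the genes that the study itself displayed from satellite cells, so its direction is not independent evidence. The same holds for Myod1, Myf5, Cdh5 and Pdgfra, whose values are given further on. In a bulk sample, fewer satellite cells and less RNA per cell cannot be told apart.

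**Figure D2:**
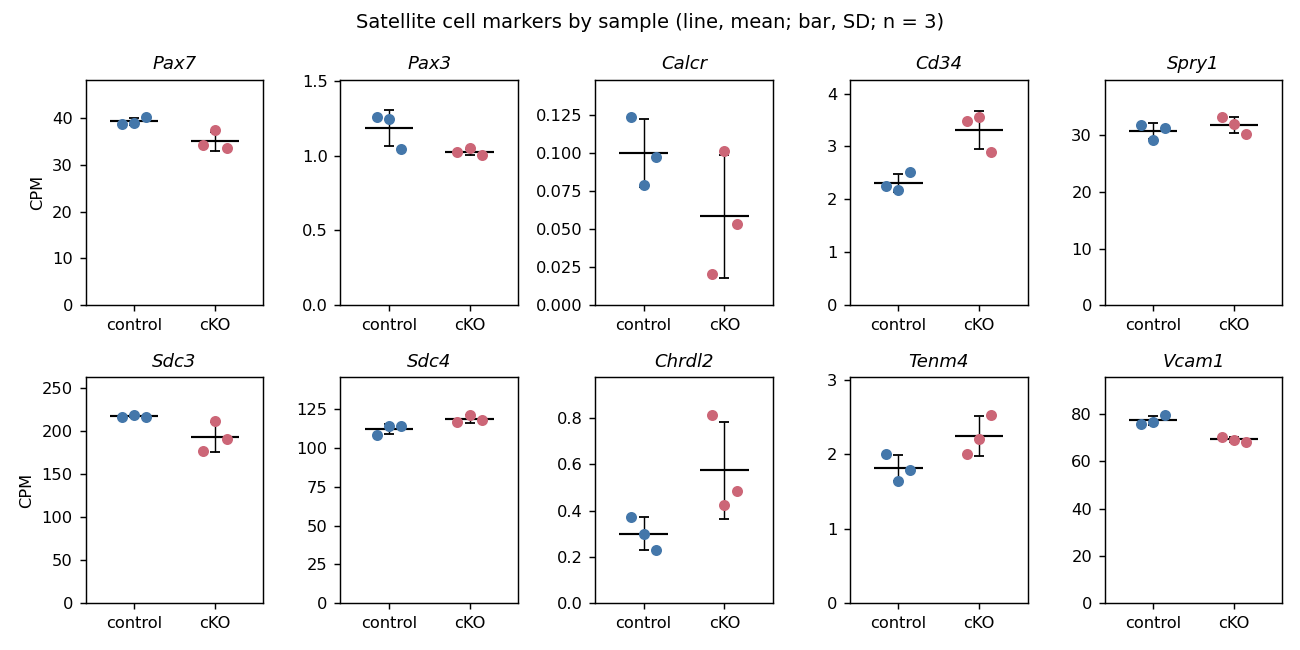
Each panel shows 1 marker in CPM on an axis from 0, with 1 point per sample, the mean as a line and the SD as a bar (n = 3). For Pax7, Sdc3 and Vcam1 all cKO samples lie below all control samples, and for Cd34, Sdc4, Chrdl2 and Tenm4 they lie above.

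Of the transcription factors, Pax7 (ENSMUSG00000028736, chromosome 4 of mm10, 139737062 to 139833528) had 38.9, 39.0 and 40.2 CPM in the control samples and 34.2, 37.4 and 33.6 CPM in the cKO samples. All cKO samples were below all control samples, with cKO replicate 2 the nearest to them. The log2 fold change was -0.19 (95% confidence interval -0.28 to -0.10, adjusted p = 0.00656). Leaving out 1 sample at a time, it ranged from -0.24 to -0.16 and stayed called in all 6 fits, with an adjusted p of up to 0.0439.

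Pax3 (ENSMUSG00000004872, chromosome 1, 78101267 to 78197134) was counted 71, 79 and 64 times in control and 49, 62 and 56 times in cKO. As CPM these are 1.26, 1.25 and 1.04 against 1.02, 1.05 and 1.003, and the groups overlapped through control replicate 3. Its log2 fold change was -0.23 with a 95% confidence interval of -0.57 to 0.11 (adjusted p = 0.394). The estimate lay below that of Pax7 but was far less exact, since a count near these has a counting error of 12.5%, against 2.16% for Pax7. Accordingly, the share of Pax3 in Pax7 quoted above did not separate the genotypes (two-sided exact permutation test, p = 0.8, where 3 samples against 3 can give no p below 0.1).

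Pax7 was also set against Myod1, the factor that commits activated cells to muscle and which was itself lower in cKO (773 ± 13.8 against 705 ± 23.8 CPM, log2 fold change -0.16, adjusted p = 0.00225). Per kilobase, Pax7 was at 1.57%, 1.61% and 1.68% of Myod1 in the control samples and at 1.56%, 1.63% and 1.55% in the cKO samples. These ranges overlapped (two-sided exact permutation test, p = 0.5), so within a library the balance of the 2 factors differed by no more than the replicates did.

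Among the surface proteins, the syndecans parted. These proteoglycans carry heparan sulphate chains that help growth factors such as FGF to reach their receptors. Sdc3 (ENSMUSG00000025743, chromosome 4, 130792537 to 130826319) had 216, 218 and 216 CPM in control and 176, 211 and 190 CPM in cKO. The control samples were nearly equal, the cKO samples were scattered, and cKO replicate 2 came close to the controls. The log2 fold change was -0.19 (95% confidence interval -0.29 to -0.09, adjusted p = 0.00984). It ranged from -0.27 without cKO replicate 2 to -0.14 without cKO replicate 1 and was called in all 6 fits, the largest adjusted p being 0.0473.

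Sdc4 (ENSMUSG00000017009, chromosome 2, 164424247 to 164443887) had 108, 114 and 114 CPM in control and 117, 121 and 118 CPM in cKO. Its groups did not overlap, but the difference was small, a log2 fold change of 0.06 with a 95% confidence interval of -0.01 to 0.13 (adjusted p = 0.306). A fall of the size seen for Sdc3 lies outside that interval. Within each library, the level of Sdc4 per kilobase was 118%, 123% and 125% of that of Sdc3 in control and 156%, 135% and 146% in cKO. Every cKO sample was higher, a mean difference in log2 ratio of 0.25 (two-sided exact permutation test, p = 0.1, the smallest that this design allows). With Sdc3 below and Sdc4 above the controls in every cKO sample, the ratio had to separate. The test therefore adds no evidence to the values of the 2 genes. Of the other syndecans, Sdc1 was lower (120 ± 2.49 against 112 ± 3.34 CPM, log2 fold change -0.13, adjusted p = 0.0121), and Sdc2 was not called (-0.06, adjusted p = 0.253).

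Vcam1 (ENSMUSG00000027962, chromosome 3, 116109949 to 116129688) encodes an adhesion molecule of the immunoglobulin family that binds integrin alpha-4 beta-1. It had 76.1, 76.8 and 79.7 CPM in control and 70.2, 69.3 and 68.5 CPM in cKO. Both groups were tight and stood well apart. The log2 fold change was -0.19 (95% confidence interval -0.26 to -0.11, adjusted p = 0.00111). It lay between -0.20 and -0.17 when samples were omitted singly, and the adjusted p was then at most 0.0129. The genes of its receptor were not called, with changes in log2 level of -0.03 for Itga4 (adjusted p = 0.825) and 0.03 for Itgb1 (adjusted p = 0.502).

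Cd34 (ENSMUSG00000016494, chromosome 1, 194938819 to 194961279) encodes a sialomucin found on satellite cells and also on endothelial cells, blood progenitors and some fibroblasts. It had 2.25, 2.18 and 2.51 CPM in control and 3.48, 3.55 and 2.90 CPM in cKO. All cKO samples were higher, replicate 3 by the least. The log2 fold change was 0.49 (95% confidence interval 0.25 to 0.73, adjusted p = 0.00649). With each sample left out it was 0.44 to 0.58 and was called in all 6 fits, with an adjusted p of up to 0.0382. The other members of the CD34 family did not pass the test, with log2 fold changes of -0.01 for Podxl (adjusted p = 0.964) and -0.04 for Podxl2 (adjusted p = 0.894).

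Markers of endothelial cells, fibroblasts and macrophages also had log2 fold changes above 0 for the most part. Macrophages are not among the CD34-bearing cells named above. Of all genes tested, 9.38% were called higher. Of 15 endothelial markers, 14 had a log2 fold change above 0 and 7 were called higher, with a list median of 0.45. Their summed level was 38.2 to 40.0 CPM in control and 55.6 to 65.2 CPM in cKO. The defining genes Pecam1 (2.73 ± 0.329 against 3.50 ± 0.324 CPM), Cdh5 (3.51 ± 0.202 against 4.92 ± 1.33 CPM) and Kdr (0.999 ± 0.0245 against 1.74 ± 0.202 CPM) were low but not at 0. Flt1 (log2 fold change 1.12) and Eng (0.55) were also among those called. The number of endothelial calls fell to 3 without cKO replicate 2 and to 4 without control replicate 2 or 3, and it was also 4 with DESeq2 or the replicate block and 3 at an adjusted p under 0.01. Of 15 genes listed as fibroblast markers, 13 were tested and 8 were called higher, with Pdgfra rising from 22.9 ± 1.31 to 51.4 ± 4.29 CPM. The list summed to 1476 to 1561 CPM in control and 1900 to 2100 CPM in cKO. Both the 13 and the sum include Tcf4 of chromosome 18, at 218 ± 2.65 and 211 ± 4.50 CPM and not called (-0.07). Dcn was at 0.953 ± 0.186 and 2.08 ± 0.198 CPM, and Lum at 0.0172 ± 0.0177 and 0.140 ± 0.0647 CPM. The fibroblast genes Col1a1 (1.29) and Mfap5 (1.37) rose the most in log2 fold change. All 15 macrophage markers were called higher, led by C1qc (1.25) and Tyrobp and including Ctss (1.19) and Lyz2 (1.18), summing to 146 to 151 CPM in control and 310 to 362 CPM in cKO. Csf1r (0.92) and Cd68 (0.90) were among them in log2 fold change, and so was Ptprc, the CD45 gene that the sort selected against (1.43 ± 0.137 against 2.83 ± 0.184 CPM). Ly6a, the gene of the SCA1 antigen that was also selected against, was at 3.04 ± 0.166 and 3.66 ± 0.241 CPM (0.24, adjusted p = 0.115). In bulk counts, RNA of other cells and RNA of satellite cells that express such genes cannot be told apart, and the part of either in the rise of Cd34 was not tested.

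Spry1 (ENSMUSG00000037211, chromosome 3, 37639947 to 37644598) limits signalling from FGF receptors and is needed for cells to return to quiescence. It had 31.8, 29.2 and 31.3 CPM in control and 33.1, 32.0 and 30.3 CPM in cKO. The groups overlapped, and the log2 fold change was 0.02 with a 95% confidence interval of -0.08 to 0.12 (adjusted p = 0.814), an interval that a fall like that of Pax7 lies outside of. Other Sprouty and SPRED genes, which inhibit the same pathway, went different ways. Spry4 rose from 14.4 ± 0.778 to 20.4 ± 0.904 CPM (log2 fold change 0.48, adjusted p = 1.69e-05) and Spred3 from 9.08 ± 0.331 to 12.8 ± 1.21 CPM (0.48, adjusted p = 0.000164). Spred2 fell from 22.1 ± 0.924 to 19.2 ± 1.55 CPM (-0.23, adjusted p = 0.0122), and Spry2 (0.04) and Spred1 (0.01) were not called. A predicted gene on the opposite strand, Gm42922, covers 24.4% of the exon bases of Spry1. Exons on the opposite strand also cover 7.73% of the exon bases of Sdc3, 4.7% of Tenm4, 2.03% of Cd34 and 0.688% of Vcam1. The strand setting of the counting is not given in the sources used here.

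Calcr (ENSMUSG00000023964, chromosome 6, 3685680 to 3764714) was counted 7, 5 and 6 times in the control libraries and 1, 6 and 3 times in the cKO libraries. Summed by group these are 18 and 10 counts, or 0.0993 CPM (95% exact Poisson interval 0.0589 to 0.157) and 0.0614 CPM (0.0294 to 0.113), intervals that cover counting error only. The samples overlapped, and at this depth a difference was not detectable. When the filter was lifted, the log2 fold change was -0.72 with a 95% confidence interval of -2.06 to 0.62 (edgeR, adjusted p = 0.685). Calcitonin-type receptors pair with the accessory proteins RAMP1 to RAMP3, and collagen V is a known ligand of CALCR in this niche. Ramp1 fell from 6.87 ± 0.250 to 5.04 ± 0.0903 CPM (log2 fold change -0.47, adjusted p = 0.000256), while the related receptor gene Calcrl rose from 12.4 ± 0.540 to 14.8 ± 0.956 CPM (0.24, adjusted p = 0.0111). The collagen V chains split: Col5a1 (0.48, adjusted p = 1.94e-06) and Col5a2 (0.30, adjusted p = 1.9e-05) rose and Col5a3 fell (-0.21, adjusted p = 0.00442).

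Chrdl2 (ENSMUSG00000030732, chromosome 7, 100006172 to 100034728), which binds and blocks BMP ligands, was counted 21, 19 and 14 times in control and 39, 25 and 27 times in cKO. At 0.371, 0.300 and 0.228 CPM against 0.813, 0.423 and 0.484 CPM, all cKO samples were above all control samples. The log2 fold change of 0.89 had a 95% confidence interval of 0.23 to 1.54 and did not pass the test (adjusted p = 0.0646). It was 0.57 without cKO replicate 1 (adjusted p = 0.253), the highest sample, and it passed without cKO replicate 2 (1.07, adjusted p = 0.0331) and with no filter on low counts (0.88, adjusted p = 0.0199). Its relatives Chrd (9.49 ± 0.0943 against 8.83 ± 0.384 CPM) and Chrdl1 (0.694 ± 0.247 against 0.642 ± 0.228 CPM) were not called.

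Tenm4 (ENSMUSG00000048078, chromosome 7, 96171246 to 96911093) encodes a large transmembrane protein that binds latrophilins on neighbouring cells. Its levels were 1.998, 1.64 and 1.79 CPM in control and 2.002, 2.20 and 2.53 CPM in cKO. The lowest cKO sample was all but level with the highest control sample, and after TMM scaling of the libraries the groups overlapped. The log2 fold change was 0.29 (95% confidence interval 0.01 to 0.57, adjusted p = 0.159). Of the other teneurins, Tenm3 was at 40.1 ± 0.909 and 40.3 ± 3.16 CPM (log2 fold change -0.02, adjusted p = 0.879), and Tenm1 and Tenm2 were too low to be tested. None of the latrophilin genes Adgrl1, Adgrl2 and Adgrl3 was called, with log2 fold changes from -0.04 to 0.03.

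**Figure D3:**
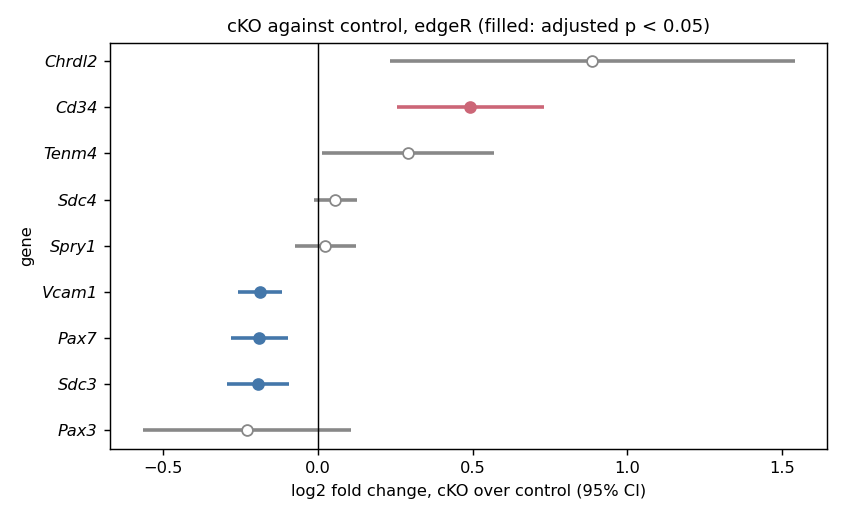
Points show the log2 fold change of cKO over control for the 9 markers tested and bars its 95% confidence interval from edgeR, filled where the adjusted p was under 0.05. Vcam1, Pax7 and Sdc3 lie together near -0.19, Cd34 is at 0.49, and the widest interval is that of Chrdl2.

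In CPM, 3 markers had all cKO samples below all control samples and 4 had them all above; among all genes tested, 31.4% had such groups, 11.1% lower and 20.3% higher. After TMM scaling Tenm4 no longer belonged to these and Pax3, lower in cKO, did.

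The wider set of satellite cell genes was read from lists of known markers. Of all genes tested, 6.46% were called lower and 9.38% higher. Of 20 other satellite cell markers, all tested, 14 were called lower and 3 higher. Their median was -0.14 in log2 fold change, against -0.0011 for all genes, and the lower calls numbered 8 without control replicate 1 or at an adjusted p under 0.01. Met, the receptor for hepatocyte growth factor, fell from 217 ± 5.50 to 171 ± 2.79 CPM (-0.37, adjusted p = 7.42e-07), and the myogenic factor Myf5 from 68.5 ± 1.26 to 53.9 ± 0.750 CPM (-0.37, adjusted p = 1.9e-06). Itga7, whose protein was used in the sort, fell from 614 ± 11.3 to 574 ± 22.9 CPM (-0.12, adjusted p = 0.0271). The 3 that rose were Msx1 (0.58, adjusted p = 0.0251), Egfr (0.47, adjusted p = 6.26e-06) and Cav1 (0.16, adjusted p = 0.00409).

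Of 30 genes tied to quiescence and its niche, 8 were called lower and 10 higher (median 0.06), beside 6.46% and 9.38% of all genes tested. Called or not, 21 had a log2 fold change above 0 and 9 below, and the summed level was 2331 to 2375 CPM in control and 2673 to 2935 CPM in cKO. The rise of that sum lay mainly in abundant matrix genes and does not describe the list as a group. Col5a2 went from 824 ± 12.7 to 1034 ± 55.3 CPM, Col5a1 from 233 ± 11.3 to 330 ± 22.3 CPM and Fbn1 from 176 ± 6.04 to 289 ± 29.6 CPM. The Notch targets Hey1 (11.01 ± 0.323 against 8.19 ± 0.220 CPM, log2 fold change -0.45, adjusted p = 7.45e-05) and Heyl (-0.24, adjusted p = 0.0272) fell, as did the receptor gene Notch3 (-0.28, adjusted p = 0.000112). Notch1 (-0.09), Notch2 (0.02), Hey2 (0.08), Hes1 (0.07) and Rbpj (0.05) of the same list were not called. Notch3 was also on the smooth muscle and pericyte list. The largest changes among the called genes of the list were rises: Meox2 (1.10), Tgfbr3 (0.81), Fbn1 (0.69) and Pmp22 (0.55). Of the genes listed as fibroblast markers 8 of 13 tested, and of the smooth muscle and pericyte markers 8 of 11, were also called higher, and their part in these rises was not tested. Genes of activation and commitment were lower for the most part, with 12 of 20 called lower, 2 called higher and a median of -0.15. The lower ones included Mef2c (-0.31), Mymx (-0.29), Mki67 (-0.26), Mymk (-0.24) and Myog (-0.20), the muscle regulator expressed as cells begin to differentiate. The 2 called higher were Tnnt1 (0.16, adjusted p = 0.00834) and Ccnd1 (0.13, adjusted p = 0.00963). Mki67 had 383, 353 and 363 CPM in control and 259, 348 and 327 CPM in cKO, with cKO replicate 1 the lowest. Of the other genes of dividing cells, Top2a fell (-0.12), and Ccnb1 (-0.03), Cdk1 (-0.06), Pcna (-0.07) and Mcm2 (-0.08) were not called.

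Over the 24 paralogues and receptor partners, of which 21 were tested, 3 genes were called in each direction and the median was -0.03. Of all genes tested, 6.46% were called lower and 9.38% higher. The 12 smooth muscle and pericyte markers, 11 of them tested, had 8 called higher and 3 lower, and summed to 6503 to 6557 CPM in control and 6527 to 6773 CPM in cKO. Leaving out control replicate 3 left 5 higher and 1 lower, leaving out control replicate 2 left 5 higher, and 5 were higher at an adjusted p under 0.01. Of the defining genes, Pdgfrb (0.57), Rgs5 (0.64) and Cspg4 (0.15) were called higher, at 54.8 ± 1.47, 17.3 ± 0.374 and 138 ± 3.55 CPM in control, and the contractile genes Cnn1 (1.21) and Myh11 (0.98) rose the most.

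**Figure D4:**
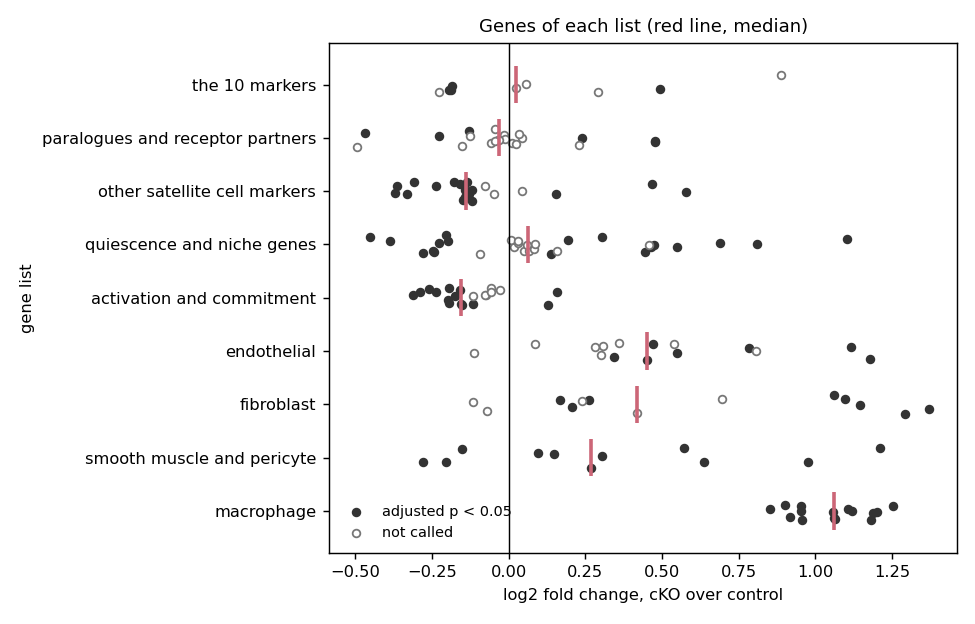
Each point is 1 tested gene, placed by its log2 fold change of cKO over control and grouped by list, filled where the adjusted p was under 0.05, with the list's median as a red line. Other satellite cell markers and activation genes centre on -0.14 and -0.15, the quiescence list spreads to both sides, and the macrophage list lies wholly above 0 around 1.06.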

How the data were processed

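Satellite cells from 3 control and 3 cKO samples were analysed, grouped by the sample labels. Per the submitters' processing notes, the authors aligned single-end reads of 75 bp to mm10 with Bowtie2 2.3.4.2 and deposited raw counts per gene made with featureCounts 1.6.3; Bowtie2 does not split reads over introns, which lowers counts at exon junctions. Normalized values and a table of fold changes and p-values that the authors made with DESeq2 2.11.40.6 were not used. Libraries were made from 400 ng of RNA after removal of ribosomal RNA.

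Gene symbols and coordinates came from GENCODE M21. Genes were kept by filterByExpr, scaled by TMM and tested with edgeR 4.0.16 (quasi-likelihood, a model with genotype alone; R 4.3.3), with Benjamini-Hochberg adjustment over all 22404 genes. CPM in the text are scaled to library totals alone. Replicates varied by 3.92% (edgeR's common biological coefficient of variation). Alternatives were DESeq2 1.42.0, limma 3.58.1 (voom), other scalings and filters, a replicate block and leaving out each sample. No replicate pair held the same library, since counts differed beyond sampling noise. Control replicates 2 and 3 were by far the closest pair. Their mean chi-square per gene, given the library totals, was 2.14, against 5.82 to 10.7 for the other replicate pairs. The members and lists were chosen with earlier results of these data known, so counts over them carry no test. Genes named besides the markers are up to 4 called genes per list with the largest changes and the first 3 of each list of another cell type. Relatives of a marker, and Myod1, Myf5, Myog, Itga7, Ptprc and Ly6a, are named as well. Further genes were added from the lists after their values were seen. These were the collagen V chains, other Sprouty, syndecan, teneurin, chordin, podocalyxin and latrophilin genes, Cav1 and the Notch genes. Also added were Abcc9, Acta2, Des, Kcnj8, Tcf4, Myh3, Ccnd1, Tnnt1, Top2a, Ccnb1, Cdk1, Pcna and Mcm2.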

Additional observations from a re-analysis of the deposited data

How the results depend on the processing

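Pax7, Sdc3 and Vcam1 stayed lower and Cd34 stayed higher, each with an adjusted p under 0.05, with DESeq2, limma voom, RLE size factors, library totals, no filter, the replicate block, an adjusted p under 0.01 and each sample left out. A second marker, Chrdl2, was called higher with no low-count filter (2 markers, log2 fold change 0.88) and without cKO replicate 2; with each sample left out there were 1 to 2 markers higher, and Chrdl2 ranged from 0.57 to 1.07. Spry1 ranged from -0.015 to 0.052, falling below 0 without control replicate 2 or cKO replicate 1, and the log2 ratio of Pax3 to Pax7 ranged from -0.14 to 0.021, rising above 0 without control replicate 1 or 2; neither passed a test. Of all genes, 1448 were lower and 2101 higher; leaving out a sample gave 917 to 1673 lower, an adjusted p under 0.01 gave 732, and library totals alone gave 1057 lower and 2462 higher. Over the other lists together, 38 genes were lower, or 24 at an adjusted p under 0.01. Same-numbered samples did not deviate together over all genes tested (correlations from -0.0145 to -0.0045). The labels do not say whether the numbers mark a shared litter or day, and with 3 samples per group these correlations cannot exclude it. With the replicate block 1251 genes were lower and 1901 higher, and the calls of the 9 markers were as without it. The number of markers detected was 9 at 0.1 CPM and 5 at 5 CPM. With the longest transcript as length, control levels were 0.306 for Pax3, 0.755 for Cd34, 11.1 for Spry1, 43.6 for Sdc3, 45.7 for Sdc4, 0.138 for Chrdl2, 0.137 for Tenm4 and 18.97 CPM per kilobase for Vcam1. Depth limits Calcr, Chrdl2, Pax3, Tenm4 and Cd34, whose counting error per sample (7.91% to 46.3%) exceeded the common variation between replicates of 3.92%.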

Other observations

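Genes whose course over the 6 samples was most like that of Pax7 were sought among the 10480 other genes with a mean of at least 10 CPM, by the root mean square difference of log2 CPM, each gene centred on its own mean. The nearest was Cd200, a surface glycoprotein of the immunoglobulin family that was also on the quiescence list, with a difference of 0.020. It had 55.9, 54.8 and 56.9 CPM in control and 47.2, 53.7 and 47.6 CPM in cKO (log2 fold change -0.20, adjusted p = 0.00582 from edgeR), so that cKO replicate 2 was nearest to the controls, as for Pax7 and Sdc3. Next came Gnai1, Rabgef1, Lpar4 and Ctdspl, with differences of 0.020 to 0.023 and log2 fold changes from -0.18 to -0.17; Gnai1 and Rabgef1 were called lower and the others were not. Myod1 ranked 69, Vcam1 183 and Sdc3 184 by the same measure, whereas Spry1 ranked 6405 and Sdc4 6816. As these ranks use the same samples as the comparison of genotypes, they describe the data and are not tested.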
